A study of Rattus norvegicus with 4 samples.

Results

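The 84 genes described here encode the proteins of the cytosolic ribosome in OLN93 cells, rat oligodendroglial cells that became immortal in culture on their own. They were chosen by symbol from the 17327 gene symbols of the deposited counts, as every symbol with Rpl or Rps followed by a digit, together with Rplp0, Rplp1, Rplp2 and Rpsa, and without the S6 kinases and symbols marked as pseudogenes. Of the 84 genes, 50 belong to the large subunit and 33 to the small subunit. The remaining symbol, Rps19bp1, stands for a protein that binds ribosomal protein S19 and is no subunit of the ribosome. RNA-Seq was carried out on 2 control libraries of Sox10-positive OLN93 cells and on 2 libraries of Sox10-deficient OLN93 cells, clones A and B, in which CRISPR/Cas9 had inactivated Sox10 with a different guide RNA in each clone. All 4 libraries came from cells grown in DMEM with 10% fetal calf serum. The sample labels call the controls biological replicates, whereas the paper speaks of control clones, so that p-values measure the spread between these libraries, which may in part be technical. Each Sox10-deficient library is a single clone, and differences that arose during cloning cannot be told apart from the loss of Sox10.

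Ribosomal proteins assemble with ribosomal RNA in the nucleolus and cytoplasm into a small subunit, which decodes the mRNA, and a large subunit, which forms peptide bonds. Their mRNAs are among the most abundant of a growing cell, and most begin with a terminal oligopyrimidine (TOP) tract, a C followed by further pyrimidines at the first transcribed base. Translation of TOP mRNAs is controlled together through the mTOR kinase. Ribosomal protein genes are often treated as housekeeping genes, and they have left many processed copies in rodent genomes, so that reads from them are often not unique to a single place.

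A pyrimidine run led by C was more frequent at the annotated starts of these genes than at those of all genes. RefSeq promoter windows of the rat assembly GRCr8 were found for 67 of the 84 genes, and Rps27a had more than 1 window. In 24 of these 68 windows (35.3%) the annotated start opened a run of at least 5 pyrimidines led by C. The same was true of 2.63% of the 33469 promoter windows of all genes and of 3.57% of 56 windows of mitochondrial ribosomal protein genes. Such a run lay within 10 bases of the start in 69.1% of the windows of cytosolic ribosomal protein genes, against 23.7% of all windows. The run was searched on the transcribed strand only, and a match describes these letters and not the measured starts in OLN93 cells. The 30 bases around the start follow for the 5 genes with a run that had enough counts to be tested for a response to Sox10 loss. Behind them stand 3 tested genes without one, which were among the genes with the most counts. Each sequence holds 15 bases before the start and 15 bases from the start on, and capitals mark the run.
Rplp0, GRCr8 chr12:46718376-46718405, minus strand: gaccgcaccgcacttCTCTCgccaggcgtc
Rpl35, GRCr8 chr3:43165907-43165936, minus strand: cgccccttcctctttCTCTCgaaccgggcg
Rpl14, GRCr8 chr8:129163605-129163634, plus strand: gggcgggccctctccCTTCTCgctgagcgc
Rps15, GRCr8 chr7:10068101-10068130, minus strand: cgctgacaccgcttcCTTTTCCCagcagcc
Rpl28, GRCr8 chr1:78083518-78083547, minus strand: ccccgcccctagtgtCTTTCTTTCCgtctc
Rpl29, GRCr8 chr8:115947628-115947657, plus strand: gggcctttctctttctcttccggtcccagg
Rpl4, GRCr8 chr8:73566462-73566491, plus strand: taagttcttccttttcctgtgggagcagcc
Rpl36, GRCr8 chr9:1533765-1533794, plus strand: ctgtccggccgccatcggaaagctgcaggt
In Rpl29 and Rpl4 a pyrimidine tract runs across the annotated start, which is a T in Rpl29, and in Rpl4 the run from the start on is 3 bases long. The window of Rpl36 holds no such tract at its start.

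The deposited counts were few and summed to between 60951 and 104017 per library. Values of at most 3 counts were taken to be at the limit of detection (the floor), and 3 counts equal 29.0 to 48.2 normalized CPM, that is, counts scaled to a common library size. For Sox10 itself, controls 1 and 2 had 28 and 64 counts, clone A had 0 and clone B had 14. The quasi-likelihood test of edgeR gave a log2 fold change of -2.74 with a standard error (SE) of 0.62 and an adjusted p of 0.0172, and the call was lost with DESeq2. Of 9 oligodendroglial marker genes, 5 could be tested. Sox10, Erbb3 and Cnp were lower in the clones after adjustment, Cspg4 (NG2) had a log2 fold change of 0.93 (SE 0.35, adjusted p = 0.196 by edgeR) and passed the unadjusted p alone, and Pdgfra had 0.22 (SE 0.34). The call of Cnp was also lost with DESeq2 (adjusted p = 0.20), that of Erbb3 with the replicate number in the model (adjusted p = 0.105), and both without control 1 or either clone. The 9 genes summed to 163 and 217 counts in controls 1 and 2 against 127 and 114 in clones A and B. As shares of each library's counts, these were 0.267% and 0.209% against 0.146% and 0.128%. Marker genes of other cell types were at or near 0. The 6 astrocyte markers summed to at most 4 counts in any library, the 5 neuronal markers to at most 1 and the 6 microglial markers to between 4 and 14, and in each of these lists 4 genes, among them Aqp4, Cx3cr1 and Rbfox3, were at 0 in every library. Gfap, the defining astrocyte gene, had 1 count in control 1. The 5 fibroblast or perivascular markers, 3 of which were at 0 throughout, summed to 23 and 41 counts in controls 1 and 2. In clones A and B they summed to 28 and 12 counts. As shares, these were 0.038% and 0.039% in the controls against 0.032% and 0.013% in the clones. The part of these markers in the values below was not tested.

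Only a minority of the ribosomal protein genes could be followed with these counts. Of the 84 genes, 26 passed edgeR's filter on low counts, 18 of the large and 8 of the small subunit. Another 35 had some counts but too few to be tested, and 23 had 0 counts in all libraries. The genes at 0 in every library include ones that every dividing cell needs, such as Rps6, the substrate of the S6 kinases, Rps19 and Rps14, whose reduced dosage causes anaemia in humans, and Rpl8 and Rplp2. Rps6, Rps19, Rpl8 and Rplp2 also have a mean normalized count of 0 in a second table of the authors, where Rps14 has 53. For these genes it can be said only that they are listed at 0. The 58 untested genes together held 55 and 85 counts in controls 1 and 2 and 87 and 97 counts in clones A and B. These are raw counts, not scaled to the library totals, and control 1 had the lowest total.

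Many other ribosomal protein genes had low counts beside this second measure. The authors' mean normalized count sums to 19320879 over all genes and to 433267, or 2.24%, over the ribosomal protein genes. By contrast, the 84 genes took between 0.832% and 0.941% of the deposited counts of a library. Among genes with an authors' mean of at least 500, the mean deposited count per library was 0.384% of the authors' mean in the median of 5402 genes, but 0.134% in the median of 54 ribosomal protein genes. Of these 54 genes, 7 (13.0%) had no deposited count, whereas this held for 0.481% of all 5402 genes. Rps4x, the X-linked S4 gene, has an authors' mean of 8766 and had 0 counts in all libraries, as had Rpl37a with 7544 and Rps23 with 6737. At the other end, Rpl36 has an authors' mean of only 376 and had 207 counts in total, so that its mean deposited count was 13.8% of the authors' mean. Across the 54 genes, the rank correlation between deposited count and authors' mean was 0.505, against 0.715 across all 5402 genes, where all points share the same libraries and gene length enters both axes.

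**Figure D1:**
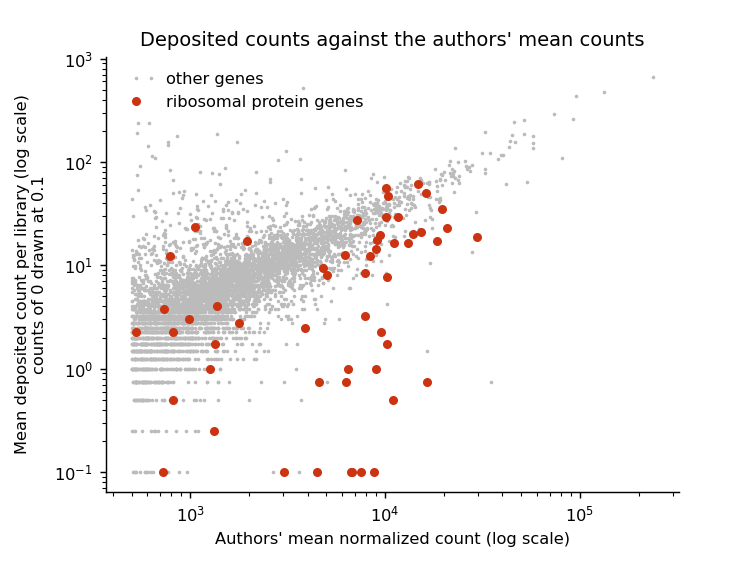
Mean deposited count per library (vertical, log scale) against the authors' mean normalized count (horizontal, log scale) for 5402 genes with an authors' mean of at least 500. The 54 ribosomal protein genes (red) reach further below the band of the other genes (grey) than above it, and 7 of them are drawn at the bottom because they had 0 counts.

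Levels in the deposited counts are therefore compared between libraries for the same gene, and no order of abundance between genes is drawn from them, also because no transcript lengths were used. The libraries were made with a kit that marks the strand, and which strand the deposited counts took is not given in the sources used here. If it was the strand opposite to each gene, the CPM and fold changes given here are those of reads from the other strand, and the counts alone did not settle this. Genes that overlap a protein-coding gene on the other strand in GRCr8 had a median of 0.454% of the authors' mean (641 genes), against 0.376% for 3637 genes without such a neighbour. The highest value was 103% among genes with such a neighbour and 20.6% among those without. The rank correlation between deposited count and authors' mean was 0.482 with such a neighbour and 0.755 without. Among the ribosomal protein genes, Rpl31 overlaps Tbc1d8 on the other strand. Rpl31 had 2 counts in all at an authors' mean of 11030, while Tbc1d8 had 97 counts at an authors' mean of 66, or 36.7% of that mean per library. Among the tested genes, Rpl35 overlaps Wdr38, Rpl27a overlaps Trim66, and the annotated span of Rpl29 reaches across Alas1, Glyctk and further genes on the other strand, so that the values of these 3 genes are uncertain. The part of the strand in these values was not tested.

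Taken as a group, ribosomal protein genes held a slightly larger share of the counts in the Sox10-deficient clones. The share was 0.832% in control 1 (95% exact binomial interval 0.761% to 0.907%) and 0.840% in control 2 (0.786% to 0.898%). It was 0.941% in clone A (0.878% to 1.01%) and 0.921% in clone B (0.859% to 0.986%). Both clones lay above both controls, and the group means were 0.836% ± 0.00594 and 0.931% ± 0.0141 (SD, n = 2 each), a ratio of 1.11. The intervals of both controls nevertheless overlapped those of both clones, although the share of each clone lay above the upper bounds of both controls. With 2 libraries against 2 an exact permutation test cannot pass the threshold. The intervals cover counting error only. In bulk samples, fewer cells and less RNA per cell cannot be told apart, and a share of counts says nothing on the number of ribosomes.

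Most of this difference lay in the large subunit, and the difference between subunits was not tested. Its genes took 0.632% and 0.659% of the counts in controls 1 and 2, and 0.746% and 0.733% in clones A and B. The small subunit took 0.199% and 0.182% in the controls against 0.194% and 0.189% in the clones, so that its groups overlapped. Counts of large subunit genes per count of small subunit genes were 3.18 and 3.62 in the controls against 3.86 and 3.89 in the clones. Without Rpl36, whose counts were out of proportion to the authors' mean, the share of all members still differed by 0.0826 percentage points, against 0.0951 with it. Much of the difference in the large subunit lay in Rpl4, Rpl36, Rplp0 and Rpl29. Mean CPM in controls and clones was 653.5 and 795.7 for Rpl4 and 542.4 and 675.7 for Rpl36. It was 513.4 and 670.5 for Rplp0 and 428.2 and 653 for Rpl29. The values of Rpl36 and Rpl29 are uncertain, and 6 of the 18 tested large subunit genes had estimates below 0. Entries of ribosomal RNA took 2.16% and 2.42% of the counts in the controls against 2.60% and 2.07% in the clones, with no separation of the groups.

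**Figure D2:**
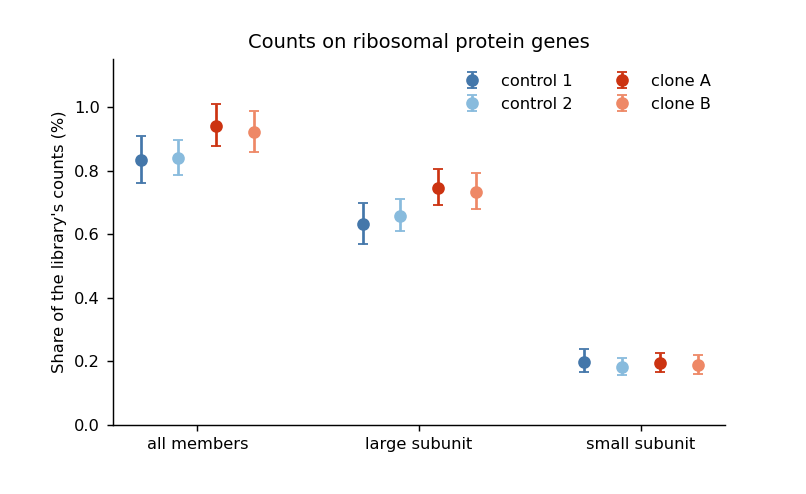
Share of each library's deposited counts (%) on all 84 ribosomal protein genes and on those of the large and the small subunit. Points are single libraries and bars are 95% exact binomial intervals. The clones lie above the controls for the large subunit, with overlapping intervals, and the libraries intermingle for the small subunit.

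No single ribosomal protein gene passed the test. Clones and controls were compared by edgeR's quasi-likelihood test on all 2438 genes that passed the filter. By the adjusted p of 0.05 or less, 1.19% of all tested genes were called higher and 2.50% were called lower in the clones, and 0 of the 26 ribosomal protein genes were called in either direction. By the unadjusted p, 6.52% of all tested genes were higher and 8.20% were lower, and again 0 of the 26 genes were called. DESeq2 also called 0 of the 26 genes, adjusted or not. The log2 fold changes of the 26 genes had a median of 0.11, against a median of -0.0059 over all tested genes. Of the 26 estimates, 16 were above 0, where 49.5% of all tested genes had an estimate above 0. Estimates of different genes share the same 4 libraries, so that such counts are not independent. Standard errors lay between 0.27 and 0.80. The median was 0.23 over the 18 genes of the large subunit and 0.030 over the 8 of the small subunit.

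A missing call does not show that levels were equal. For 7 of the 26 genes (26.9%) the 95% interval of the fold change lay within 2-fold in both directions, where 14.4% of all tested genes had such an interval. These 7 genes were Rpl3, Rpl4, Rpl15, Rpl23, Rpl36, Rps15 and Rpsa. Whether an interval is this narrow depends on precision. The median standard error was 0.43 over the 26 genes and 0.50 over all tested genes. For the other 19 genes a 2-fold difference in at least 1 direction was compatible with the counts. Groups that did not overlap, with both clones higher, occurred in 6 genes (23.1%), close to 21.6% of all tested genes. Both clones were lower in 2 genes (7.69%), against 21.5% of all tested genes. The log2 difference between groups had an SD of 0.39 across the 26 genes and of 0.75 across all tested genes. Precision enters these SDs too, and the difference between them was not tested. The replicates of the 26 genes differed with an SD of 0.73 between the controls and of 0.54 between the clones. Over all tested genes these SDs were 0.72 and 0.68. They describe differences between single libraries, whereas the group differences are between means of 2 libraries, so that the 2 kinds of SD are not directly comparable.

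**Figure D3:**
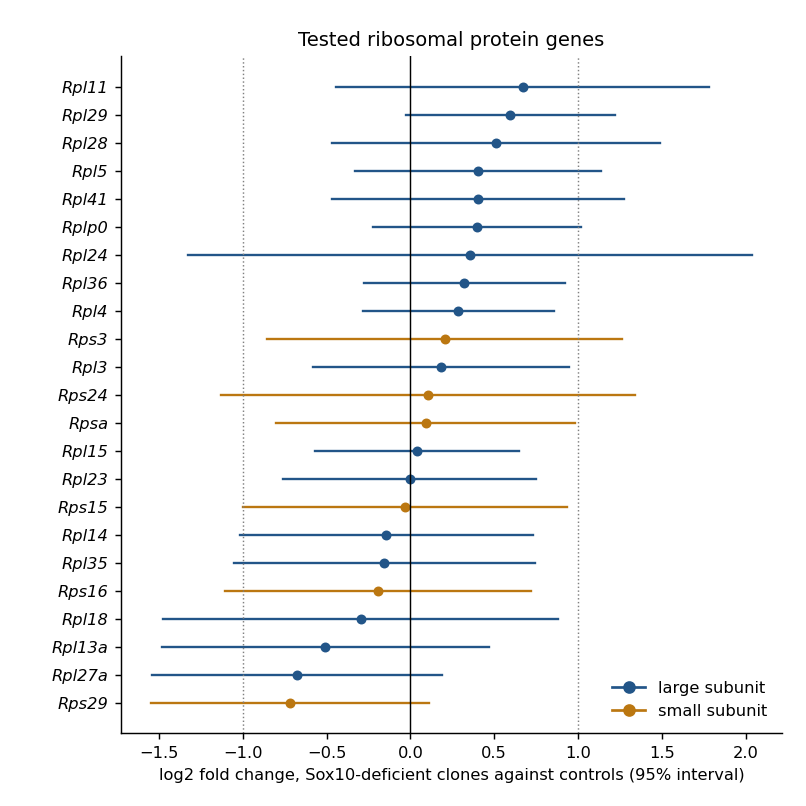
Log2 fold change of 23 of the 26 tested ribosomal protein genes in the Sox10-deficient clones against the controls (horizontal), with 95% intervals from edgeR's quasi-likelihood test. Every interval shown includes 0, and dotted lines mark 2-fold. Estimates run from -0.72 for Rps29 to 0.67 for Rpl11.

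Among genes of the large subunit, Rpl4, whose protein lines the exit tunnel for the nascent chain, had the most counts. It had 658 and 649 CPM in controls 1 and 2 and 786 and 805 CPM in clones A and B. Both clones were higher, but the log2 fold change was only 0.28 (SE 0.27, adjusted p = 0.735 by edgeR), with an interval from 0.82-fold to 1.81-fold. Rplp0, which anchors the stalk that recruits elongation factors, had 562 and 465 CPM in the controls against 740 and 601 CPM in clones A and B. Its groups did not overlap either, and the log2 fold change was 0.40 (SE 0.29, adjusted p = 0.61). The partners of Rplp0 in the stalk could not be followed, since Rplp1 had 3 counts in clone B alone and Rplp2 was listed at 0.

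Rpl5 and Rpl11 carry the ribosomal RNA of the 5S particle into the large subunit and, when free, bind and inhibit the ubiquitin ligase Mdm2. Rpl5 had 273 and 310 CPM in the controls against 393 and 385 CPM in clones A and B. Both clones were above both controls, with a log2 fold change of 0.40 (SE 0.35, adjusted p = 0.69 by edgeR). For Rpl11, the controls had 48.2 and 271 CPM and the clones 347 and 216 CPM. Control 1, the library with the fewest counts, stood apart with 3 counts of Rpl11, and the other 3 libraries intermingled. The log2 fold change of Rpl11 was 0.67 (SE 0.53, adjusted p = 0.64), and it was 2.50 (adjusted p = 0.0385) when control 2 was left out and control 1 alone stood for the controls. Rpl23, which also binds Mdm2 when free, had 482 and 358 CPM in the controls against 301 and 522 CPM in the clones. Its log2 fold change was -0.0055 with a standard error of 0.36, and the spread within each group exceeded the difference between them. Rpl26, a further member of this group, was listed at 0.

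Rpl29, a small basic protein of the large subunit, came nearest to a call. It had 402 and 455 CPM in the controls against 682 and 624 CPM in clones A and B. The groups did not overlap, and the log2 fold change was 0.60 (SE 0.30, adjusted p = 0.369 by edgeR), with an interval from 0.98-fold to 2.33-fold. Genes on the other strand of Rpl29 are named above. Rpl36 had 562 and 523 CPM in the controls against 694 and 658 CPM in clones A and B. Its log2 fold change was 0.32 (SE 0.28, adjusted p = 0.705), and its counts are uncertain for the reason given above. Rpl28 had 112 and 203 CPM in the controls against 289 and 181 CPM in the clones. Here clone B lay below control 2, and the log2 fold change of 0.51 had a standard error of 0.46.

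Among the 5 genes with the most counts, both clones lay above both controls in Rpl4, Rpl36, Rplp0 and Rpl29, but not in Rpl15. Both clones were higher in 23.1% of the tested ribosomal protein genes and in 21.6% of all tested genes. Rpl15 had 739 and 581 CPM in the controls against 752 and 590 CPM in clones A and B, so that replicates differed more than conditions. The log2 fold change was 0.039 (SE 0.29), with an interval from 0.67-fold to 1.57-fold. Rpl3, which lies next to the peptidyl transferase centre, had 241 and 378 CPM in the controls against 370 and 352 CPM in the clones, with a log2 fold change of 0.18 (SE 0.36). Rpl41, the smallest ribosomal protein, had 161 and 358 CPM in the controls against 278 and 442 CPM in the clones. Control 1 was again the lowest library, and the log2 fold change was 0.40 (SE 0.41), with 0.0078 without control 1 and 1.16 without control 2.

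In the opposite direction, Rpl27a was the gene of the large subunit with the lowest estimate. It had 289 and 281 CPM in the controls against 173 and 181 CPM in clones A and B. Replicates were closer to each other than the groups were, yet these values rest on 78 counts in all. The log2 fold change was -0.68 (SE 0.41, adjusted p = 0.501 by edgeR), with an interval from 0.34-fold to 1.14-fold. Rpl13a, which is also released from the ribosome in the interferon response, had 193 and 271 CPM in the controls against 220 and 113 CPM in the clones, a log2 fold change of -0.51 (SE 0.46) with overlapping groups. Rpl18 had 209 and 126 CPM in the controls against 104 and 159 CPM in the clones, and its log2 fold change was -0.30 (SE 0.56).

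**Figure D4:**
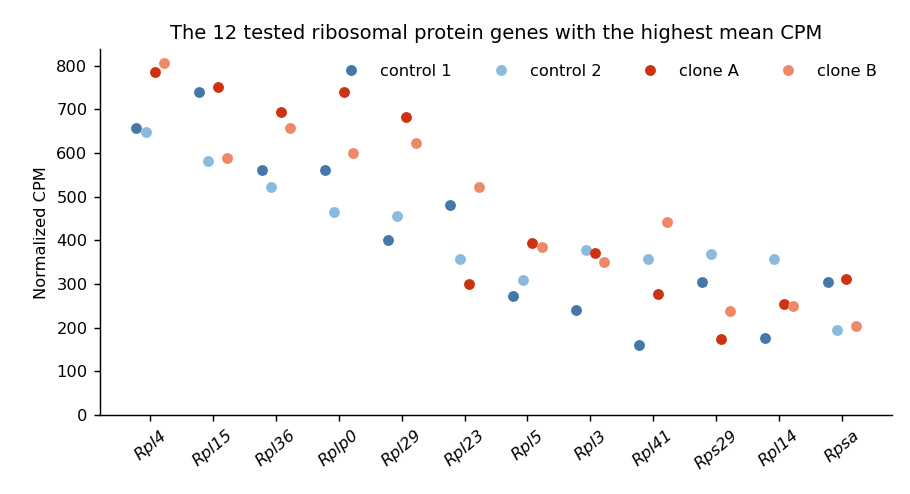
Normalized CPM of the 12 tested ribosomal protein genes with the highest mean CPM, with 1 point per library. In Rpl4, Rpl36, Rplp0, Rpl29 and Rpl5 both clones lie above both controls, in Rps29 both lie below, and in the others the groups overlap.

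Among genes of the small subunit was the lowest estimate of the 26. Rps29, a zinc-binding protein of the small subunit, had 305 and 368 CPM in the controls against 173 and 238 CPM in clones A and B. Both clones were lower, with a log2 fold change of -0.72 (SE 0.39, adjusted p = 0.437 by edgeR) and an interval from 0.34-fold to 1.08-fold. The mean deposited count of Rps29 was 2.20% of the authors' mean, which sums 4 Ensembl entries under this symbol, and that of Rps24 was 1.56%, so that the counts of both genes were high for their authors' mean.

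Other tested genes of the small subunit had estimates nearer to 0. Rps3, which lies at the entry of the mRNA channel, had 177 and 145 CPM in the controls against 127 and 238 CPM in clones A and B. The clones enclosed the controls, and the log2 fold change was 0.20 (SE 0.50). Rpsa, also known as the precursor of the laminin receptor, had 305 and 194 CPM in the controls against 312 and 204 CPM in the clones. Its log2 fold change was 0.090 (SE 0.42), and replicates again differed more than groups. Rps16 had 209 and 223 CPM in the controls against 220 and 159 CPM in the clones. Rps16, with a log2 fold change of -0.20 (SE 0.43), Rps15, with -0.031 (SE 0.46), and Rps24, with 0.11 (SE 0.59), lay on either side of 0.

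Tested genes with and without a run at the annotated start had estimates on both sides of 0. The 5 tested genes with a run at the annotated start, whose sequences are given above, had log2 fold changes between -0.16 and 0.51 with a median of -0.031. The 16 tested genes with a promoter window and no run at the start had values between -0.68 and 0.67 with a median of 0.19. A run lay within 10 bases of the start in 12 of the 21 windows of tested genes (57.1%). This split therefore does not separate TOP genes from other genes. It is a description of few genes, and no test was made.

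Some ribosomal proteins have paralogues that can replace them in certain tissues or under stress, and none of these pairs had enough counts to be tested on both sides. Rps27l, a paralogue of Rps27, had 6 and 8 counts in controls 1 and 2 against 12 and 8 in clones A and B, while Rps27 was listed at 0 in the deposited counts with an authors' mean of 4448. Rpl22 had 5 and 4 control counts against 11 and 8 in the clones. For its paralogue Rpl22l1, 3 and 1 counts stood against 0 in either clone, which lies at the floor in every library, so that no fold is given. Rpl36al had 5 and 2 control counts against 6 in each clone, and its partner Rpl36a had 2 counts in clone B alone. Rpl3l, which belongs to striated muscle, had at most 1 count in a library. Rpl39 had 1 count in control 2 alone, and Rpl39l and Rps4y2 were at 0. Reads shared between near-identical copies may have been lost or split in these counts, and Rps19bp1 had 1 count in control 1 and 1 in clone A.

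Among the genes with too few counts to test, Rpl10, which joins the large subunit in a late step of its maturation, had 6 and 6 control counts against 11 and 8 in the clones. Rpl7 had 6 and 10 counts against 8 and 14, and Rpl12 had 3 and 8 counts against 2 and 3. No difference was detectable with so few counts. Rps27a, which is made as a fusion with ubiquitin, had 0 and 5 control counts against 1 in each clone, despite an authors' mean of 10236. Rpl19 had 4 counts in clone A and 0 elsewhere, and Rpl38, a regulator of selective translation in embryos, was at 0 in all libraries.

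Other genes of the ribosome and of translation were examined in 6 lists, in which 0 genes were called after adjustment. By the unadjusted p, 3 of 51 tested genes (5.88%) were higher and 4 (7.84%) were lower, against 6.52% and 8.20% of all tested genes. Proteins that are bound to the subunits or made as fusions with ubiquitin were represented by 7 symbols, of which 4 could be tested. All 4 had estimates above 0, as had 49.5% of all tested genes, and their median log2 fold change was 0.46. Gnb2l1, which encodes the scaffold protein Rack1 on the small subunit, had 418 and 368 CPM in the controls against 578 and 454 CPM in clones A and B. Its log2 fold change was 0.40 (SE 0.32, adjusted p = 0.642 by edgeR). Serbp1, which binds idle ribosomes, had 0.52 (SE 0.34), and Naca, which meets nascent chains at the exit tunnel, had 0.37 (SE 0.34). The fusion gene Fau, with 0 counts in both controls against 3 and 1 in the clones, had too few to test.

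Of 9 genes for elongation factors and other TOP mRNAs, 8 were tested, with a median log2 fold change of -0.042. Vim, the intermediate filament vimentin, was the gene past the unadjusted p, with 2570 and 2207 CPM in the controls against 1596 and 1191 CPM in the clones. Both clones were lower, and the log2 fold change was -0.77 (SE 0.25, adjusted p = 0.115 by edgeR). Of 28 initiation factors in the files, 16 were tested, with a median of 0.26. Eif3b, a core subunit of the initiation factor eIF3, was past the unadjusted p with -1.24 (SE 0.49, adjusted p = 0.219).

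For ribosome biogenesis, 9 of 37 genes in the files were tested, with a median log2 fold change of 0.25. Of these 9 genes, 8 had estimates above 0, against 49.5% of all tested genes, and this difference was not tested. Nop58, a core protein of box C/D small nucleolar particles, was past the unadjusted p with 64.2 and 96.8 CPM in the controls against 173 and 261 CPM in the clones, a log2 fold change of 1.37 (SE 0.56, adjusted p = 0.236 by edgeR). For RNA polymerase I and regulators of ribosome supply, 10 of 27 genes were tested, of which 3 passed the unadjusted p, with a median of 0.062. Cdkn1a, the cell cycle inhibitor p21, had 64.2 and 67.8 CPM in the controls against 231 and 238 CPM in the clones, with a log2 fold change of 1.80 (SE 0.56, adjusted p = 0.0922). Mtor, the kinase upstream of TOP mRNAs, had a log2 fold change of -1.74 (SE 0.70, adjusted p = 0.224). Mtor rests on 37 counts in all, with 6 and 3 in the clones, and both Cdkn1a and Mtor passed the unadjusted p alone.

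Mitochondrial ribosomal proteins, which are encoded by nuclear genes but serve a different ribosome, had 69 symbols in the files, of which 4 could be tested. Their share of the counts was 0.287% and 0.304% in the controls against 0.271% and 0.259% in clones A and B, so that here both clones lay below both controls. Over these 4 genes the median estimate was -0.072. Mrpl42 was past the unadjusted p with a log2 fold change of -2.76 (SE 1.00, adjusted p = 0.16 by edgeR), with 7 and 14 control counts against 2 and 1 in the clones, which lie at the floor.

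**Figure D5:**
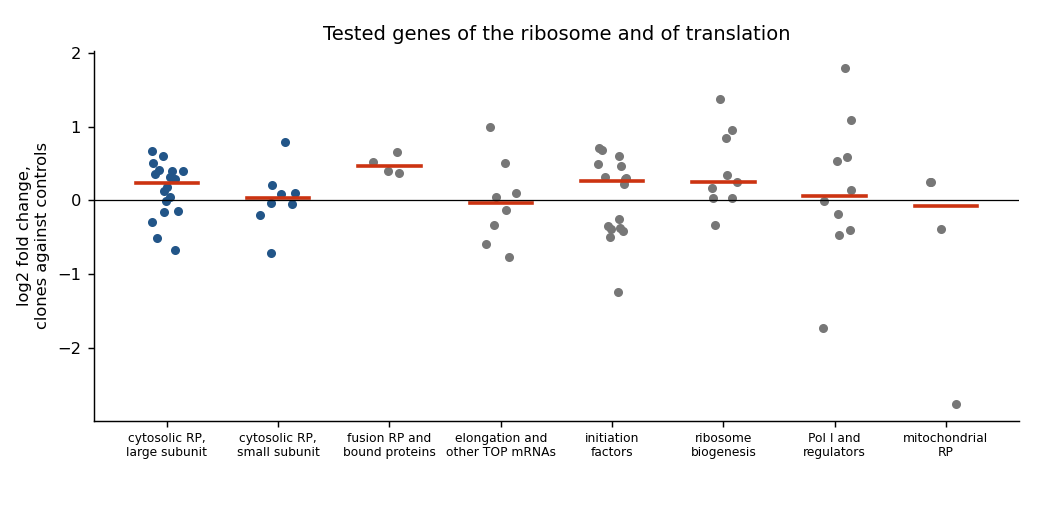
Log2 fold change in the Sox10-deficient clones against the controls (vertical) for tested genes of the cytosolic ribosome and of other lists, with 1 point per gene and a red bar at the median of each list. The 18 large subunit genes have a median of 0.23 and the 8 small subunit genes of 0.030, and no gene shown was called after adjustment.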

How the data were processed

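RNA-Seq libraries of 2 control and 2 Sox10-deficient OLN93 samples were analysed. For each library, the authors aligned reads with STAR 2.5.1 on the rn5 build, kept unique mappings in HTSeq and deposited raw counts under gene symbols. The paper names Ensembl identifiers, and the strand option of the counting is not given in the sources used here. The authors also deposited a table with a mean normalized count per gene, which is rounded and was handled as a score. Its columns of fold changes, standard errors, Wald statistics and p-values hold the authors' own comparison and were not used.

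For the test, edgeR 4.0.16 under R 4.3.3 was applied to these counts, with its default filter on low counts, TMM scaling of library totals and the quasi-likelihood F test for condition alone. Benjamini-Hochberg adjustment covered the 2438 genes that passed. Standard errors were derived from the F statistic, and 95% intervals from the t distribution of the same fit. SDs between replicates on the log2 scale used CPM with a prior of 2 counts. The script was tested on simulated data. Exact binomial intervals were computed with scipy 1.17.1. Libraries were treated as separate samples. The deposited counts summed to 60951 to 104017 per library, whereas the authors' mean normalized counts sum to 19320879. The deposited totals are therefore not the sequencing depth, which the paper puts far higher.

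Values of some single genes are not reported here. Otherwise, every gene past the adjusted or the unadjusted p was to be named, with the 5 highest and 5 lowest estimates, the 5 genes with the highest mean CPM, and genes set for their role or as paralogues. The other tested or uncounted genes in the text were named after their values were seen. Members, lists and names were chosen with earlier results of these data known. Alternatives were DESeq2 1.42.0, other scalings and filters, the replicate number in the model, other denominators of the share, and leaving out each library.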

Additional observations from a re-analysis of the deposited data

How the results depend on the processing

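Under 12 alternatives, the number of ribosomal protein genes called stayed at 0 except in these. Without control 2, Rpl11 was called after adjustment, a range of 0 to 1 when each library was left out, and 0 to 2 genes by the unadjusted p (Rpl11 and Rpl41 without control 2). By the unadjusted p, 1 gene was called with at least 10 counts in every library and 1 with the replicate block (Rpl29). The labels number the controls and letter the clones, and for the replicate block clones A and B were taken as numbers 1 and 2. Deviations of same-numbered libraries from their group means correlated by 0.122 over tested genes. With 2 libraries per group the deviations within a group mirror each other, so that this is a single comparison. Whether the libraries were prepared in pairs was not tested. The median log2 fold change of the members moved to 0.15 without a filter and to 0.16 with at least 10 counts, and ran from 0.028 without clone B to 0.24 without control 2. The difference in share was 0.116 percentage points without the 10 other genes with the most counts, 0.123 over counts on tested genes and 0.0826 without Rpl36, the last chosen after seeing the data, as was the fit without ribosomal RNA entries. The adjusted p of Sox10 was above the threshold with DESeq2 (0.9998), with the replicate block (0.125) and without clone A (0.0959). The causes were not tested.

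Of 270 alternative fits of 23 tested members, 23 turned the sign of an uncalled estimate, in 12 genes. Rpl23 was 0.0012 with DESeq2's size factors, 0.00047 with TMM without ribosomal protein genes, 0.023 without a filter and 0.021 with at least 10 counts. Rps15 was 0.0059 with DESeq2 and 0.024 with the replicate block. When each library was left out in turn, Rpl18 ran from -0.66 to 0.063, Rps16 from -0.44 to 0.020, Rpl15 from -0.15 to 0.21, Rpsa from -0.25 to 0.41, Rps3 from -0.32 to 0.58, Rpl23 from -0.46 to 0.33 and Rpl3 from -0.066 to 0.58. The other genes were Rpl14 (-0.51 to 0.51), Rpl24 (-0.46 to 1.63), Rpl35 (-0.39 to 0.22), Rps15 (-0.36 to 0.55) and Rps24 (-0.76 to 0.64). With no change of sign, values moved by over 1.5 times in Rpl11 (0.050 to 2.50), Rpl41 (0.0078 to 1.16), Rpl28 (0.15 to 1.05), Rpl13a (-1.05 to -0.11), Rplp0 (0.24 to 0.54), Serbp1 (0.086 to 0.85), Naca (0.12 to 0.77) and Gnb2l1 (0.22 to 0.57). A lone library of a group was assumed to vary like the others. With these counts, 58 of the 84 genes could not be tested.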
